A study of Mus musculus with 53 samples.

Results

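A pair of stages of cultured neural precursors from mouse were compared: neural stem cells, titled as neuronal stem cells derived from "NPc" (2 arrays), and neuronal progenitors marked by Sox1-GFP (3 arrays). These 5 arrays were chosen by their sample titles from 53 Affymetrix arrays in 15 groups. The other groups hold embryonic stem (ES) cells of 3 genotypes (wild-type, Ezh2-null and Eed-null), mesoendoderm and embryonic fibroblasts. Each ES cell genotype was sampled at day 0 and on later days of withdrawal of the cytokine LIF, so many of these arrays hold differentiating cells. The abbreviation NPc is not spelled out in the labels, and no line, day of differentiation, sorting step or clone is given for either group, so the labels do not tell whether the stem cells came from the progenitors on these arrays. The labels name no mutant allele for the 2 groups, and give standard culture conditions for the stem cells. Wild-type ES cells at day 0 (7 arrays of the lines J1, CJ7 and E14tg1, before withdrawal of the cytokine LIF) and mouse embryonic fibroblasts (MEF, 2 arrays) served as outside points of reference. The arrays of a group are called biological replicates without a statement of what was repeated, so their spread may be technical. The p-values and standard errors (SE) use a spread pooled over all 15 groups, not that of these 5 arrays alone. Some of those groups mix ES cell lines.

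Sox1 is a transcription factor of the early neural plate, and a GFP reporter of it marks neuroepithelial progenitors as they arise from ES cells. Such progenitors are elongated, epithelial and patterned along the body axis, and they soon go on to make neurons. Neural stem cells kept in culture with EGF and FGF2 are a later and self-renewing state that resembles radial glia, the cells that serve as both scaffold and stem cell of the growing brain. Radial glia carry glutamate transporters, nuclear factor I proteins and tenascin C, and under EGF and FGF many cultures switch on Olig2. Both cell types express Sox2, nestin and vimentin.

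Levels are given as deposited signal, per array or as mean ± SD. Differences are log2 fold changes ± SE on the log2(signal + 32) scale, stem cells minus progenitors, which understates the change of dim genes. Adjusted p-values are from limma with Benjamini-Hochberg adjustment over the 13796 genes tested. Genes are named as called, risen or fallen where the adjusted p was under 0.05 and the difference at least 2-fold. Some calls were lost with a larger pseudocount (4 times 32) or with the average of a gene's probe sets in place of its brightest one, and values under these settings follow the main ones. In bulk RNA, fewer cells of a type and less RNA per cell cannot be told apart.

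The 2 cell types differed in 1931 of 13796 genes (14%), of which 734 (5.32%) were higher and 1197 (8.68%) lower in neural stem cells. A difference of at least 4-fold was found for 190 of the higher and 233 of the lower genes, and of at least 16-fold for 26 and 29. The groups did not overlap for 1930 of the 1931 called genes, but they did not overlap for 76.1% of all genes either, so a lack of overlap says little here. Array medians lay between 57.6 and 58.3 in the progenitors and at 61.9 and 62.5 in the stem cells. Correlations over genes were 0.989 to 0.995 within the progenitors, 0.994 within the stem cells and 0.866 to 0.871 between them. The median difference over all genes tested was -0.096.

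**Figure D1:**
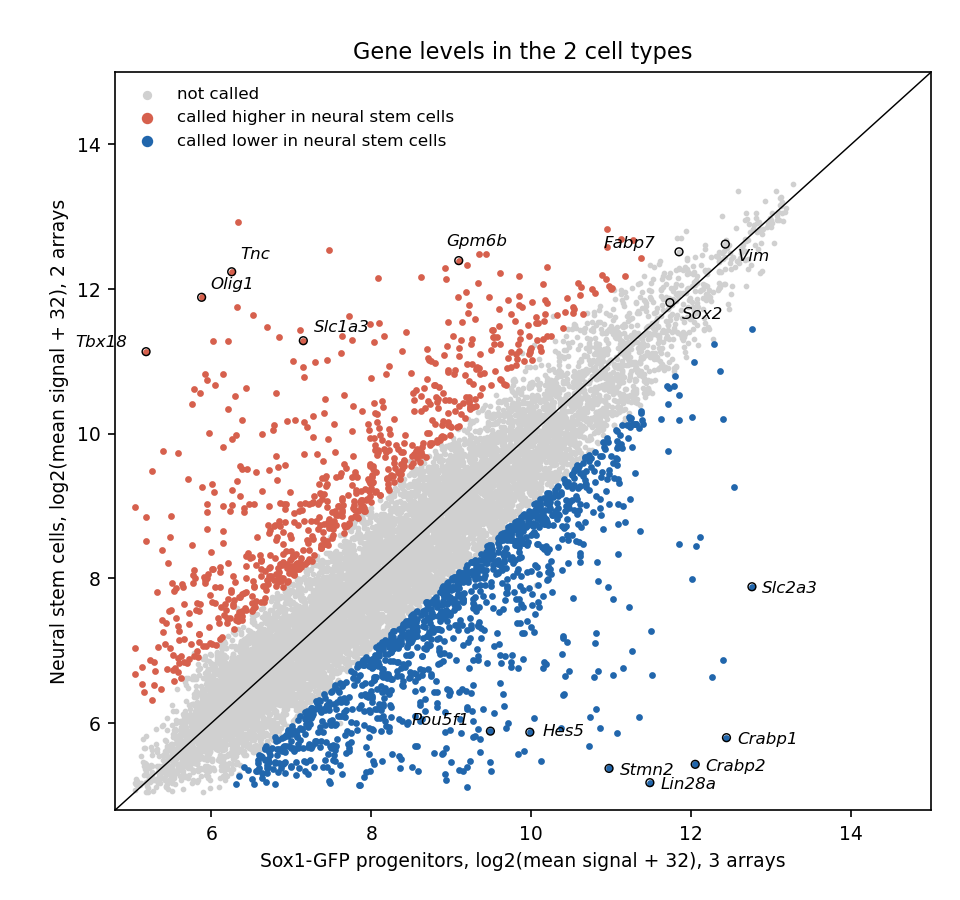
Mean level of each of the 13796 genes tested in Sox1-GFP progenitors (x axis, 3 arrays) against neural stem cells (y axis, 2 arrays), both as log2(mean signal + 32), with genes called higher (734) or lower (1197) in colour and the diagonal of equal level. Olig1, Tnc and Tbx18 lie far above the diagonal, Crabp1, Crabp2 and Lin28a far below it, and Sox2 and Vim on or near it.

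The labels were set against defining markers first. Sox2, the transcription factor shared by neural precursors, read 3399.6, 3593.2 and 3127.8 in the progenitors and 3651.1 and 3482.1 in the stem cells, with overlapping groups and a difference of 0.08 ± 0.40 (adjusted p = 0.89, limma). Vimentin (Vim), an intermediate filament of precursors, was 5473 ± 291 (SD, n = 3) and 6269 ± 185 (SD, n = 2), a difference of 0.20 ± 0.27 that was not called. Fabp7, the brain lipid-binding protein of radial glia, was bright in both, at 3654 ± 73.1 in the progenitors and 5820 ± 228 in the stem cells, and its difference of 0.67 ± 0.18 passed the adjusted p (0.0022) but not the fold minimum. The 3 genes given as markers of the comparison, Gpm6b, Pou3f3 and Crabp1, all differed, as set out below. They were given for this same comparison, so their differences are no check of the labels. Gfap, the filament of mature astrocytes, was dim in both groups, at 75 ± 5.45 and 97.4 ± 1.20.

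Sox1, nestin (Nes) and Egfr read differently by probe set. The probe set that stood for Sox1, the one with the highest mean over all 53 arrays, was dim at 41.9, 45.5 and 53.8 in the progenitors and 17.4 and 5.1 in the stem cells, a difference of -0.88 ± 0.19 that was not called. The other Sox1 probe set read 745.5, 752.0 and 788.7 against 45.5 and 41.5, a difference of -3.39 ± 0.21 (adjusted p = 1.6e-17, limma over probe sets). On that probe set every progenitor array lay far above both stem cell arrays, in the direction of the label. For Egfr, the EGF receptor that lets neural stem cells respond to EGF, the gene's own probe set gave 291 ± 35.5 against 415 ± 13 (0.48 ± 0.25, not called), while another read 51.2, 72.0 and 109.1 against 753.1 and 753.6 (2.88 ± 0.21, adjusted p = 3.6e-15). Nes, a filament of neural precursors, gave 0.15 ± 0.23 on its own probe set and 1.59 ± 0.45 (adjusted p = 0.0043) on another that read 800.9, 723.6 and 680.9 against 2199.3 and 2333.3. The probe sets were compared after their disagreement had been seen.

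**Figure D2:**
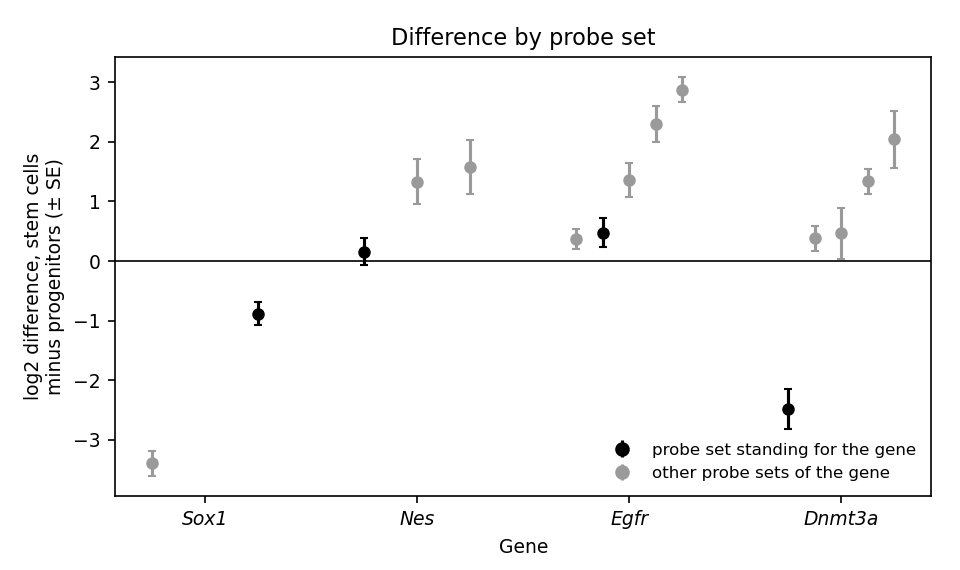
Difference between neural stem cells and progenitors (y axis, log2, ± SE) for each probe set of Sox1, Nes, Egfr and Dnmt3a (x axis), with the probe set that stood for the gene in black and the others in grey. The black points of Sox1, Nes and Egfr lie nearer to 0 than the most distant grey point of the same gene, and Dnmt3a has probe sets on both sides of 0.

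Most radial glia and neural stem cell genes were higher in the stem cells. Of 30 listed genes, all tested, 17 rose and 2 fell, with a median difference of 1.60 against -0.096 over all genes. Olig2, the bHLH factor that cultured neural stem cells switch on, read 20.8, 23.8 and 21.8 in the progenitors and 1374.5 and 1280.6 in the stem cells, a difference of 4.65 ± 0.18 (adjusted p = 2.6e-25, limma). Its relative Olig1 read 21.1, 28.4 and 31.2 against 3707.7 and 3798.5 and had the largest rise of all called genes without overlap (6.01 ± 0.17). The highest Olig1 signal on any other array of the series was 34.9, so this gene stood above the dim range in the stem cells alone among the groups measured.

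Genes of the glial surface and of glutamate handling rose with them. Slc1a3, the glutamate transporter of radial glia and astrocytes, read 94.7, 114.8 and 121.0 against 2402.7 and 2528.3 (4.14 ± 0.21). Gpm6b, a membrane glycoprotein of neural cells, read 542.6, 521.6 and 479.5 against 5236.0 and 5458.8 (3.30 ± 0.28, adjusted p = 4.3e-13, limma), and its paralog Gpm6a rose by less (2.24 ± 0.17). Ptprz1, a receptor phosphatase of radial glia, rose from 185 ± 31.5 to 2489 ± 153. Sparcl1, a secreted matrix protein of glia, rose from 42.1 ± 28.3 to 1267 ± 27.2.

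Transcription factors of the gliogenic phase rose as well. Nfix, a nuclear factor I protein, read 30.8, 41.8 and 20.4 against 985.2 and 1010.6 (4.04 ± 0.17), and Nfia 139.5, 131.3 and 132.9 against 630.1 and 647.6 (2.01 ± 0.20). Nfib, the third family member in the list, gave 99.8 ± 11.7 against 169 ± 5.23 and missed the fold minimum. Sox9, which precedes glial fate, rose from 266 ± 13 to 1934 ± 43.3 (2.72 ± 0.43). The 2 listed genes that fell were Fgfbp3, a secreted FGF-binding protein (1370 ± 516 to 107 ± 0.141), and Ednrb, an endothelin receptor (207 ± 22.1 to 79.9 ± 3.32, not called with the larger pseudocount).

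The mature glial lists moved less evenly. Of 19 measured oligodendrocyte lineage genes 13 were tested, and 4 rose and none fell: Olig1, Olig2, Cnp (1.72 ± 0.24), an enzyme of myelinating cells, and Opcml (1.15 ± 0.14; 0.77 with the larger pseudocount). A gene was tested if it lay above the array median in at least 2 arrays, and the lowest array median was 50.5. Olig1 read at most 34.9 outside the stem cells, so it was tested only through the group where it is high. Olig2 was as dim in the progenitors and at most 33.5 in ES cells at day 0. Such genes can enter the count only as rises. Sox10, which commits cells to the oligodendrocyte lineage, stayed dim at 60.9 ± 2.15 and 49.2 ± 9.47. Of 19 measured astrocyte genes 15 were tested, and 3 rose and 2 fell with a median of -0.245. Aldoc, the brain aldolase of astrocytes, rose from 231 ± 18.6 to 2436 ± 103, whereas Apoe, the lipid carrier of astrocytes, fell from 555 ± 149 to 43.0 ± 2.90.

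**Figure D3:**
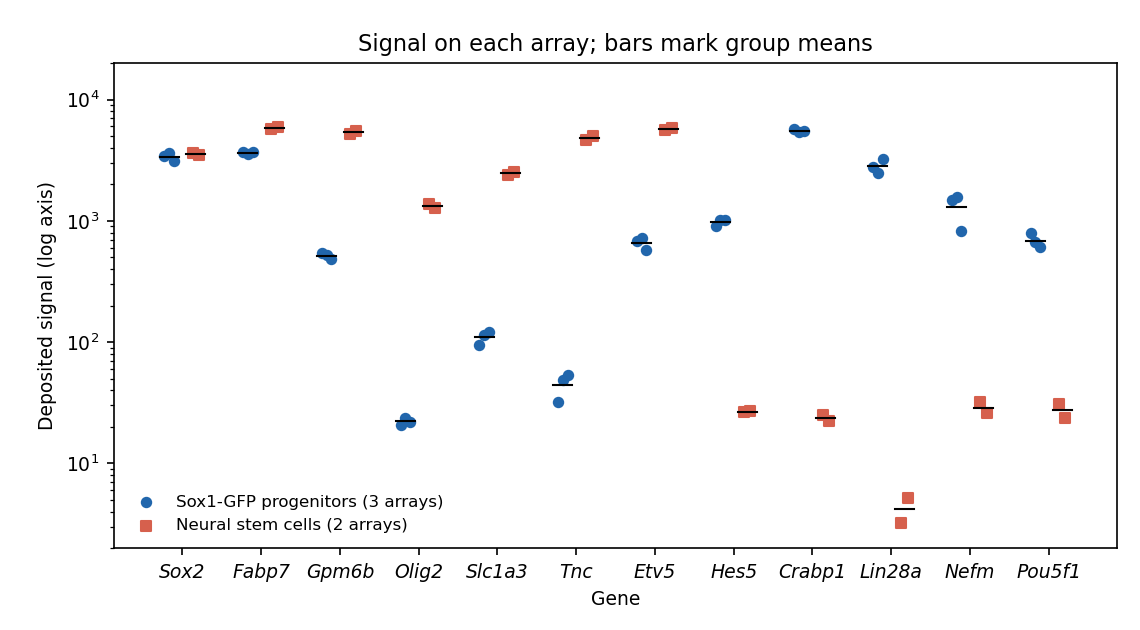
Deposited signal (y axis, log scale) of 12 genes (x axis) on each of the 3 progenitor arrays and the 2 stem cell arrays, with bars at the group means. Sox2 overlaps between the groups, Gpm6b, Olig2, Slc1a3, Tnc and Etv5 are higher on both stem cell arrays, and Hes5, Crabp1, Lin28a, Nefm and Pou5f1 are higher on all 3 progenitor arrays.

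The 12 largest rises included several genes of the cell surface and matrix. Tnc, the matrix glycoprotein tenascin C of the neural stem cell niche, read 31.9, 48.3 and 53.1 against 4602.2 and 5001.2 (5.99 ± 0.81, adjusted p = 5.6e-08, limma). Bcan, the brain proteoglycan brevican, read 32, 57.8 and 55.3 against 3252.6 and 3607.8 (5.44 ± 0.19), and Chl1, an adhesion molecule of the L1 family, read 77.9, 73.7 and 62.9 against 2740.5 and 2909.8 (4.79 ± 0.13). The 12 were picked for their rise in the stem cells, and the next count was made for no other genes. Of the 12 largest rises, 10 read higher on both stem cell arrays than on every other array of the series. The exceptions were Igfbp3, an IGF-binding protein (5.14 ± 0.58), which reached 3495.4 in mesoendoderm, and Tgfbr2, the type II TGF-beta receptor (33.0, 46.0 and 47.1 against 2362.8 and 2540.3), which reached 3237.0 in MEF. Tbx18, a T-box factor, read 4.9, 3.2 and 5.1 against 2206.6 and 2226.3. The other rises in this group were Pld1 (5.26), a phospholipase, Chst7 (4.91), a sulfotransferase, Dock10 (4.83), a guanine nucleotide exchange factor, Pcdh9 (4.8), a protocadherin, and Calcrl (4.72), a receptor of adrenomedullin and CGRP.

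Of 45 measured matrix and adhesion genes 43 were tested; 9 rose, 8 fell and the median was 0.015, so the list had no common direction. Brain proteoglycans were on the higher side, with Ncan (neurocan) at 461 ± 40.8 against 2351 ± 102. So was Cd44, the hyaluronan receptor, at 62.0 ± 13.1 against 680 ± 69.9, and Lgals1, a galectin of neural stem cells and fibroblasts, at 458 ± 58.3 against 4475 ± 261. Genes of the basement membrane and its receptors were found on both sides. Lama1, the laminin chain of early epithelia, read 362.2, 483.8 and 594.1 against 10.3 and 14.1 (-3.51 ± 0.47), and Itga3, a laminin receptor chain, fell from 612 ± 105 to 130 ± 10.3. The laminin chain Lamc1 and the collagen Col4a1 rose by 1.12 and 1.06, but neither call held under all settings. Another probe set of Lamc1 was called lower (-1.09), so the direction of this gene is not settled. With the larger pseudocount 5 matrix genes fell.

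EGF and FGF signalling genes moved in both directions. Of 27 tested members 6 rose and 7 fell (median 0.268). Among those that rose were feedback inhibitors and ETS factors that FGF signalling induces: Spry4 read 108.7, 109.5 and 114.0 against 1774.9 and 1681.3 (3.62 ± 0.25), Dusp6, an ERK phosphatase, rose from 548 ± 113 to 3942 ± 180, and Etv5 from 661 ± 74.2 to 5704 ± 210. Spry1 (1.92 ± 0.15), the ligand Fgf1 (1.87 ± 0.15) and Etv4 (1.26 ± 0.18; 0.94 with the larger pseudocount and 0.92 with probe sets averaged) were the other members that rose. Fgf15, an FGF of the embryonic neural tube, read 485.2, 450.0 and 807.2 against 39.8 and 40.4 (-3.04 ± 0.25), and the inhibitor of EGF receptors Errfi1 fell from 689 ± 61.6 to 216 ± 16.1. The remaining falls were the ligands Fgf4, Fgf5 and Fgf8 and the receptors Fgfr2 and Fgfr3, each of which was not called with the larger pseudocount, so 2 falls were left there (4 with probe sets averaged).

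Early neuroepithelial genes were mostly lower in the stem cells. Of 29 measured genes 28 were tested, and 15 fell (12 with the larger pseudocount) and 3 rose, with a median of -1.36. Hes5, a Notch effector that holds progenitors undifferentiated, read 907.3, 1010.6 and 1022.0 against 26.6 and 26.8 (-4.11 ± 0.13, adjusted p = 1.7e-28, limma). Zbtb16 (Plzf), a zinc finger factor of neural rosettes, read 990.2, 978.1 and 787.7 against 92.4 and 80.3 (-3.0 ± 0.18). Prom1 (CD133, an apical membrane protein) fell by 2.29, Sox21 by 2.48 and Sox3, the close relative of Sox1 and Sox2, by 1.86. Pax6, the paired-box factor of dorsal progenitors, read 902.2, 890.9 and 850.3 against 278.3 and 220.9 (-1.70 ± 0.20; -0.90, not called, with probe sets averaged).

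The 3 neuroepithelial genes that rose were 2 POU factors and a LIM homeobox factor. Pou3f3 (Brn1) read 1244.7, 1245.4 and 857.7 against 3062.4 and 2879.8 (1.41 ± 0.14, adjusted p = 1.7e-11, limma). Pou3f1 (Oct6) rose from 578 ± 106 to 2398 ± 23.9, and Lhx2 from 42.0 ± 16 to 266 ± 1.13. The third POU factor of the family in the list, Pou3f2, went the other way, from 203 ± 27.7 to 51.8 ± 0.919 (-1.48 ± 0.13; -0.88 with the larger pseudocount).

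Of 32 measured axis-patterning genes 26 were tested, and 10 fell (6 with the larger pseudocount), 1 rose and 15 were not called (median -0.361). Meis2, a TALE homeobox factor, read 1997.4, 2087.9 and 1787.8 against 208.7 and 197.3 (-3.08 ± 0.34), and Irx2, an Iroquois factor, fell from 1196 ± 280 to 192 ± 2.47. Egr2 (Krox20), a hindbrain factor, fell from 668 ± 558 to 82.1 ± 1.56. Otx2, which marks forebrain and midbrain, read 208.6, 261.6 and 122.2 against 3.3 and 3.4. The gene that rose was Emx2, a factor of the dorsal forebrain, from 25.8 ± 4.17 to 119 ± 0.707 (1.39 ± 0.15; 0.68 with the larger pseudocount). Of 23 tested Hox genes 3 fell and none rose, of which Hoxb2 (1527 ± 89.1 to 295 ± 20.4) and Hoxb1 (173 ± 22.6 to 15.9 ± 1.98) belong to the hindbrain end of their cluster; the third was Hoxa2 (-1.03 ± 0.14; -0.84 with the larger pseudocount).

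The retinoic acid binding proteins gave the 2 largest falls of all genes. Crabp1, a cytosolic binding protein of retinoic acid, read 5680.2, 5391.4 and 5513.6 against 24.9 and 22.5 (-6.64 ± 0.23, adjusted p = 2e-26, limma), and Crabp2, which carries retinoic acid to its nuclear receptors, read 4344.7, 4301.5 and 3981.8 against 10.1 and 12.2 (-6.62 ± 0.36). In ES cells at day 0 the median signals were 131.5 for Crabp1 and 50.8 for Crabp2, so both were high in the progenitors and below the ES cell level in the stem cells. Rarb, a retinoic acid receptor that is itself induced by retinoic acid, went the other way, from 65.9, 48.6 and 39.2 to 715.2 and 687.3 (3.15 ± 0.26). The other 13 of 16 tested pathway genes were not called. So 12.5% of the list fell and 6.2% rose, near the 8.7% and 5.3% of all genes.

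The promoter of the gene with the largest fall is shown because it holds a repeated motif. The 250 bases before the start of Crabp1 lie at chr9:54764498-54764747 on the plus strand (RefSeq, GRCm38.p6). The GC box GGGCGG, a binding motif of Sp factors, was searched on both strands and is in capitals, and it occurs 5 times. Over the promoters of 11028 genes tested, 57.29% held it at least once, which gives no background for 5 copies. Of the 12 largest falls 7 had a matched promoter, and 2 of these held the box (28.57%).
Crabp1: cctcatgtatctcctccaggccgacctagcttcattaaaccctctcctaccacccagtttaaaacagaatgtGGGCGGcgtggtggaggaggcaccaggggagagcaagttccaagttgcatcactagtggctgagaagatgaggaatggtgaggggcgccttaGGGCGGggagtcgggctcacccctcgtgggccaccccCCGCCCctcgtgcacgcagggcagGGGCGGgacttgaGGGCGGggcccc

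Neuronal genes were lower in the stem cells. Of 37 measured neuron and neuroblast genes 31 were tested; 16 fell, none rose and the median was -1.02; with the larger pseudocount 8 of the 31 fell. A stricter filter on dim genes left 18 for testing, of which 10 fell. The neurofilament Nefm read 1497.0, 1574.9 and 819.7 against 31.8 and 25.9 (-4.40 ± 0.49), and Nefl, its neighbour in the genome, fell by 3.97. Tubb3, the neuronal beta-tubulin, read 705.6, 606.6 and 406.1 against 14.9 and 9.9 (-3.74 ± 0.43), and Nhlh2, a bHLH factor of young neurons, 679.6, 650.4 and 337.4 against 14.6 and 5.3. Stmn2, a microtubule regulator of growing axons, had the largest fall of the list (1978 ± 435 to 9.5 ± 0.849), but wild-type ES cells were at 2587.8 to 3563.8, so its signal is not restricted to neurons here. The proneural factors Neurod4, Neurog1 and Neurog2 were dim in the progenitors (89.6 ± 24.4, 87.8 ± 44.3 and 70.1 ± 15), and their falls were not called with the larger pseudocount.

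Replicate 3 of the progenitors read lowest of the 3 for Tubb3, Nefl, Nefm and Nhlh2, and highest for Stmn2. It correlated with the other 2 at 0.989, against 0.995 between those. Without it 17 neuronal genes fell and none rose. The summed signal of the list was 10137.5 to 13751.6 in the progenitors, 3394.5 to 3587.6 in the stem cells, 5917.1 to 8507.2 in ES cells and 2125.8 to 2189.7 in MEF. What part a share of young neurons has in these falls was not tested.

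The Notch list holds Hes5 and other receptors, ligands and effectors. Of 24 members 4 fell (16.7%) and 1 rose (4.2%), against 8.7% and 5.3% of all genes (median -0.427). The gene that rose was Mib1, a ligase that activates Notch ligands (830 ± 91.7 to 1907 ± 124), and its call was lost without stem cell replicate 1 or 2, with the replicate block and with probe sets averaged (1.24, 1.11, 1.08 and 0.63). Nrarp, a Notch-induced feedback regulator, fell from 763 ± 216 to 247 ± 3.89, and Hes1 overlapped between the groups (315 ± 30.2 and 297 ± 11.2). The receptor Notch2 fell (-1.44 ± 0.15; -0.96 with probe sets averaged), whereas Notch1 read 825 ± 177 and 1549 ± 108 and was not called.

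In the Wnt list 8 of 29 tested genes fell (4 with the larger pseudocount) and 3 rose. The secreted Wnt modulators fell furthest: Sfrp2 read 4305.1, 4360.9 and 3590.8 against 215.7 and 228.6 (-4.01 ± 0.28), and Sfrp1 1722.5, 1776.2 and 1764.6 against 113.0 and 98.9 (-3.70 ± 0.35). The receptor Fzd1 rose from 384 ± 32.7 to 2280 ± 12.5, and Tcf7l2, a nuclear effector, from 121 ± 12.6 to 497 ± 19.4. Of 28 BMP and TGF-beta genes 6 fell (21.4%) and 3 rose (10.7%), against 8.7% and 5.3% of all genes. Fst (follistatin), a secreted activin antagonist, read 794.7, 847.1 and 998.6 against 14.6 and 16.8 (-4.25 ± 0.53). The Id proteins, which block bHLH factors, split: Id4 fell from 770 ± 140 to 52.4 ± 3.32, and Id3 rose from 619 ± 131 to 1888 ± 137. Of 11 hedgehog genes 2 fell (18.2%, against 8.7% of all genes) and none rose. Among those that fell was Gli3 (1306 ± 104 to 340 ± 19.7), the pathway's repressor.

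Of 26 listed pluripotency genes, all tested, 14 fell in the stem cells and none rose (median -1.08). With the larger pseudocount 10 fell, and with probe sets averaged 12. Pou5f1 (Oct4) read 790.5, 666.1 and 604.9 in the progenitors and 31.0 and 23.6 in the stem cells (-3.59 ± 0.29), against 3802.5 to 4498.6 in ES cells and 27.0 and 28.6 in MEF. Nanog, its partner in ES cells, read 442.7, 472.1 and 439.7 against 6.8 and 7.7 (-3.62 ± 0.34), with ES cells at 1477.9 to 2034.5. Dppa5a, an RNA-binding protein of ES cells, read 2450.7, 2553.3 and 1149.6 against 73.3 and 65.7 (-4.28 ± 0.25). Replicate 3 of the progenitors was the lowest for Dppa5a, and without it 16 pluripotency genes fell and none rose.

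The summed signal of the 26 genes was 56330.5 to 63769.5 in ES cells, 16181.0 to 18408.6 in the progenitors, 5867.3 to 6129.6 in the stem cells and 7857.9 to 8272.1 in MEF. The ES cell markers Zfp42 and Pou5f1 differed between progenitors and ES cells by -4.25 and -2.53. The scale understates the change of dim genes, and the share of the ES cell level that each member kept was not tested. Sox2, also a neural gene, was near its ES cell level in the progenitors (-0.03 ± 0.30), and the factors Klf4 and Klf5 were lower there (126 ± 53.4 and 191 ± 13.4) than in MEF (1062.0 and 1248.4, and 1594.4 and 1667.0). Whether a few remaining ES cells or low expression in many cells gave this signal was not tested. Of 14 tested genes of the primed epiblast, the state that follows, 10 fell and 1 rose (median -1.74). With the larger pseudocount 7 fell, and with probe sets averaged 8. Dnmt3b, the de novo methyltransferase of early embryos, read 1924.1, 1636.1 and 1829.0 against 75.9 and 70.1 (-4.12 ± 0.28), and Cdh1 (E-cadherin) fell from 454 ± 38.6 to 39.2 ± 8.98.

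**Figure D4:**
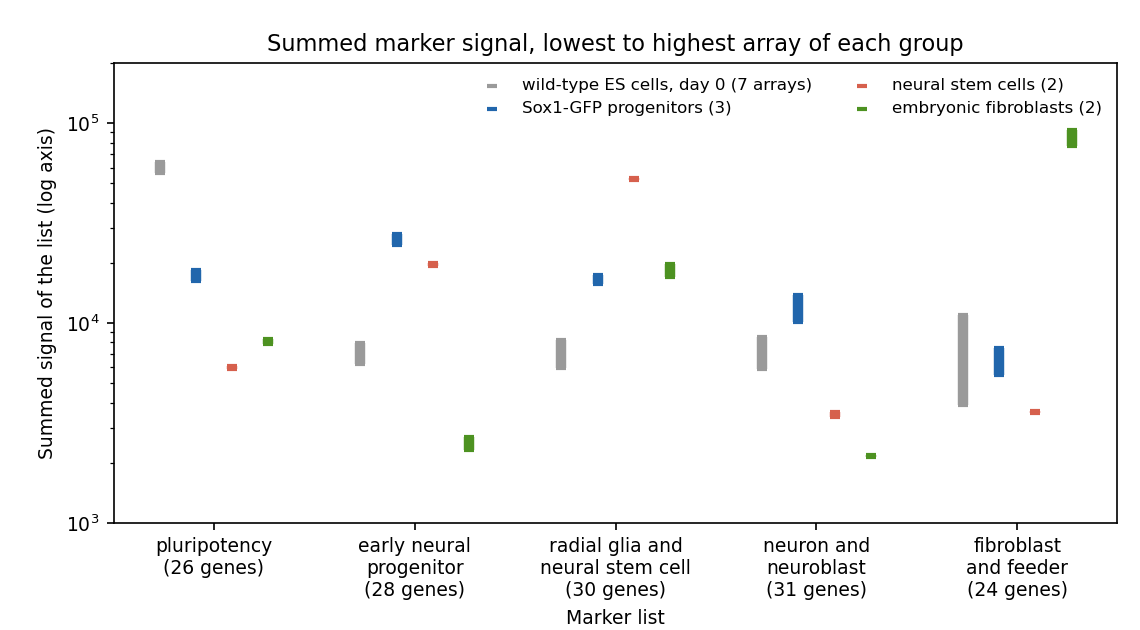
Summed deposited signal of 5 marker lists (y axis, log scale) in wild-type ES cells at day 0, Sox1-GFP progenitors, neural stem cells and MEF (colours), drawn from the lowest to the highest array of each group. The pluripotency sum is highest in ES cells (56330.5 to 63769.5) and lowest in the stem cells (5867.3 to 6129.6), and the fibroblast sum is highest in MEF (76792.6 to 91970.3).

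Markers of other cell types were examined next. The fibroblast list summed to 5474.7 to 7504.4 in the progenitors and 3564.0 to 3631.1 in the stem cells, against 76792.6 to 91970.3 in MEF, and Col1a1, the main fibroblast collagen, read 7.5, 20.3 and 26.2 against 1.0 and 3.0. Of the 24 fibroblast list members 5 fell (20.8%) and 2 rose (8.3%), against 8.7% and 5.3% of all genes. With probe sets averaged 3 fell. The smooth muscle gene Tagln fell from 826 ± 327 to 82.7 ± 4.24, and the fibrillar collagen Col3a1 rose from 74.7 ± 3.81 to 288 ± 6.15. Of 24 mesoderm genes 1 fell (4.2%), Fgf8. Of 14 neural crest genes 1 fell (Tfap2b, 155 ± 36.9 to 12.6 ± 0.071) and 1 rose (Ets1, 142 ± 10.9 to 652 ± 33.2). That is 7.1% each way, near the 8.7% lower and 5.3% higher over all genes. Of 19 tested endoderm genes 3 fell (15.8%) and 1 rose (5.3%), against 8.7% and 5.3% of all genes. Without progenitor replicate 3, 1 fell. The rise was that of Col4a1, which was not called without progenitor replicate 1 or 2, with arrays centred on their median or with the larger pseudocount (0.87, 0.96, 0.99 and 0.97). The summed signal of the endoderm list was 2912.2 to 4934.1 in the progenitors and 3459.1 to 3470.4 in the stem cells. Of 14 measured microglia and blood genes 6 were tested and none was called (summed signal 263.0 to 307.2 and 329.6 to 332.8).

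Lin28a and other genes of fetal growth were mostly lower in the stem cells. Of 12 tested members of the list 9 fell (6 with the larger pseudocount, 8 with probe sets averaged) and 1 rose (median -1.59). Lin28a, which blocks maturation of let-7 microRNAs, read 2763.2, 2496.9 and 3232.8 against 3.2 and 5.2 (-6.30 ± 0.31, adjusted p = 6.1e-21, limma). Mycn, a Myc family member of neural progenitors, read 2182.8, 2490.2 and 2594.2 against 109.9 and 81.9 (-4.27 ± 0.28), and Myc itself was the member that rose, from 139 ± 32.9 to 638 ± 38.5. Trim71, an RNA-binding protein that is itself a let-7 target, fell by 2.74, and Igf2bp3, an oncofetal RNA-binding protein, fell by 2.13.

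Of 24 imprinted genes 8 fell (6 with the larger pseudocount, 10 with probe sets averaged) and none rose (median -0.837). Meg3, a maternally expressed long RNA, read 2988.2, 2763.3 and 2923.2 against 76.2 and 63.1 (-4.85 ± 0.48), and the lowest array outside these groups read 1162.6. Grb10, an adaptor that restrains growth factor receptors, read 5326.8, 5468.6 and 5354.7 against 80.2 and 90.3 (-5.53 ± 0.99), and Cdkn1c (p57), an inhibitor of the cell cycle, 1812.5, 2127.6 and 1336.9 against 46.8 and 35.8 (-4.59 ± 0.39). Peg3, a paternally expressed zinc finger gene, fell from 2107 ± 180 to 781 ± 0.778. Mest, another paternally expressed gene, stayed bright at 7260 ± 60.3 and 5959 ± 160 and was not called. Zdbf2, imprinted in mouse but not in the list, was among the 12 largest falls (-4.93 ± 0.25).

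The rest of the 12 largest falls had no common list. Slc2a3 (GLUT3), a high-affinity glucose transporter, read 6636.2, 6726.5 and 7340.3 against 211.1 and 197.9 (-4.87 ± 0.10), with ES cells at 5785.9 to 6538.3. Insl6, a relaxin family peptide, read 2366.4, 3058.5 and 2286.2 against 38.6 and 33.3 (-5.25 ± 0.18), and no other array of the series exceeded 85.8. Mtm1, the phosphoinositide phosphatase myotubularin, fell by 5.61 to 67.8 ± 7.35, and every other array of the series read at least 571.5. Greb1l and Pcdh8, a protocadherin, fell by 5.21 and 5.02. On all 3 progenitor arrays 6 of these 12 genes read higher than on every other array of the series. The 12 were picked for their fall from the progenitor level, and no such count was made for other genes.

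Several genes of glucose handling fell beside Slc2a3. Of 20 tested glycolysis and hypoxia genes 6 fell and 1 rose (median -0.681). Slc2a1 (GLUT1), the widespread glucose transporter, read 4221.9, 4370.3 and 4145.4 against 309.7 and 324.8 (-3.61 ± 0.21). Pfkl, a phosphofructokinase, fell from 2141 ± 125 to 400 ± 4.67, and Bnip3, a mitochondrial protein induced by hypoxia, from 1773 ± 41.3 to 268 ± 22.2. Of the members not called, Ldha, which makes lactate, read 6858 ± 255 and 5113 ± 10.1, and Pgk1, a glycolytic kinase, 7538 ± 66.9 and 4842 ± 12.3, both under the fold minimum. The member that rose was Aldoc, counted above with the astrocyte genes.

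Of 19 cholesterol synthesis genes, all tested, 8 rose (6 with probe sets averaged) and none fell, and the median difference of 0.952 stood against -0.096 over all genes. Stard4, a sterol carrier, read 602.5, 559.6 and 660.6 against 1929.1 and 1879.0 (1.60 ± 0.21). Idi1, which makes the isoprene units, read 1483.4, 1258.2 and 1621.6 against 3258.6 and 3428.1 (1.19 ± 0.30, adjusted p = 0.0012, limma), and Hsd17b7, a sterol reductase, rose from 168 ± 14.2 to 487 ± 40.8. Insig1, a sterol sensor, and Dhcr7, the last enzyme of the pathway, rose by 1.22 ± 0.32 and 1.35 ± 0.35. Cyp51, Fdps and Sc5d also rose (1.39, 1.31 and 1.16), but with probe sets averaged they gave 0.92, 0.67 and 0.83. Sqle (0.95 ± 0.26) and Hmgcs1 (0.61 ± 0.28), 2 enzymes of the pathway, were not called, and the regulator Srebf2 read 959 ± 81.1 and 1340 ± 129. Its relative Srebf1, which drives fatty acid synthesis and was chosen after its values were seen, read 839.8, 883.4 and 842.5 against 2954.3 and 2996.0 (1.76 ± 0.15). Fdft1 was the 1 member with a negative difference (-0.16 ± 0.23).

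The promoters of 4 pathway genes are shown, of which Idi1, Cyp51 and Hsd17b7 were called and Hmgcs1 was not. Other called members with a promoter, such as Dhcr7, Insig1 and Sc5d, are not shown. The 250 bases before each start are from RefSeq (GRCm38.p6): Hmgcs1 at chr13:119690101-119690350 on the plus strand, Idi1 at chr13:8885356-8885605 on the plus strand, Cyp51 at chr5:4104698-4104947 on the minus strand and Hsd17b7 at chr1:169969206-169969455 on the minus strand. Capitals mark 3 motifs searched on both strands, which do not overlap in these sequences: the GC box GGGCGG, the CCAAT box CCAAT, bound by NF-Y, and the sterol regulatory element TCACNCCAC.
Hmgcs1: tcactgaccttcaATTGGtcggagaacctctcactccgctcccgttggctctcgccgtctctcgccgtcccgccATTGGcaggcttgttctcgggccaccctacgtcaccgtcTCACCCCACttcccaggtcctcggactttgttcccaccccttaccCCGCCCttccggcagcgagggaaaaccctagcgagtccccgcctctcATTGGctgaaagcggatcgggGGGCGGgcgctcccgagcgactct
Idi1: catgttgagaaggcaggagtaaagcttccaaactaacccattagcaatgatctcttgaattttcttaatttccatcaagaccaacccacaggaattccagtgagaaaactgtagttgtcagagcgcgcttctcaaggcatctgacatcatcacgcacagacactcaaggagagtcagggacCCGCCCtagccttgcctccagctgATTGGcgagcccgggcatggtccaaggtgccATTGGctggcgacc
Cyp51: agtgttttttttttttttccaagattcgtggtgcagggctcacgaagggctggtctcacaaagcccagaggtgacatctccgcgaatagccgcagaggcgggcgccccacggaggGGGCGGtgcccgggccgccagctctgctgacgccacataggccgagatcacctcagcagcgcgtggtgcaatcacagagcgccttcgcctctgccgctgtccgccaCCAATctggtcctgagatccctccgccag
Hsd17b7: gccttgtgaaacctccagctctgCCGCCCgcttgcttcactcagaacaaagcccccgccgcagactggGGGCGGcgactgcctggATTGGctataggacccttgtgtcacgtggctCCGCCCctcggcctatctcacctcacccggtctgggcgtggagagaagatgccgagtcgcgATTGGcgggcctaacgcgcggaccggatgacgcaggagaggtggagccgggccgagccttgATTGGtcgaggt

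All 4 hold a GC box and a CCAAT box, with 2 GC boxes and 3 CCAAT boxes in Hmgcs1, 1 and 2 in Idi1, 1 and 1 in Cyp51, and 3 and 3 in Hsd17b7. Only Hmgcs1 holds the sterol element in this window, and it is the 1 such promoter among the 15 matched for the pathway. The called gene Dhcr7, not shown, holds a GC box but no CCAAT box. What the 4 share thus follows in part from their choice. Over the 11028 promoters of genes tested, 57.29% held a GC box, 36.31% a CCAAT box and 0.99% the sterol element. Promoters were matched for 15 of the 19 pathway genes (78.9%), under the 80% needed, so a comparison of motifs over the whole list is void. The motifs were chosen after the gene values were known, and a match is a description of letters and not of a site in use.

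Inhibitors of the cell cycle moved in both directions, while proliferation genes fell at near the share of all genes. Of 27 tested proliferation genes 2 fell (7.4%, against 8.7% of all genes), none rose and the median was -0.277. The summed signal was 60141.5 to 61492.5 in the progenitors and 51228.6 to 52643.7 in the stem cells. Gmnn, an inhibitor of replication licensing, fell from 1294 ± 9.64 to 553 ± 15.2, and the licensing factor Cdt1, which it binds, fell by 1.16 (-0.77, not called, with probe sets averaged). Of 17 inhibitors and D cyclins 5 rose and 3 fell. Cdkn2c (p18), which binds Cdk4 and Cdk6, read 118.2, 161.0 and 104.0 against 814.2 and 805.0 (2.41 ± 0.20), and Cdkn2a, the Ink4a/Arf locus, read 21.7, 20.3 and 13.8 against 169.8 and 167.0 (1.99 ± 0.28). Cdk6 itself fell from 1154 ± 142 to 222 ± 18.5, beside the fall of Cdkn1c given above. Mki67, a proliferation antigen, read 2215 ± 63.2 and 3644 ± 90.2 and was not called.

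Among chromatin genes, Ezh2, the methyltransferase of the Polycomb complex PRC2, read 2093.6, 2006.9 and 2090.9 against 1060.8 and 1095.7, a difference of -0.92 ± 0.21 that passed the adjusted p (0.00039) but missed the fold minimum. Eed, its partner, read 957 ± 51.5 and 811 ± 1.91 and did not pass. Of 23 tested PRC2 and PRC1 genes 7 fell and 1 rose. Jarid2, which helps recruit PRC2, fell from 1201 ± 143 to 395 ± 0.212, and Pcgf6, of a variant PRC1, from 971 ± 46.6 to 201 ± 11.5. With probe sets averaged 3 of these genes fell. Of 26 BAF remodelling subunits 2 rose (7.7%) and 1 fell (3.8%), against 5.3% and 8.7% of all genes, and 0 and 0 with the larger pseudocount. Of 13 DNA methylation genes 2 fell (15.4%) and 1 rose (7.7%). Dnmt3a, a de novo methyltransferase, had probe sets in both directions: its own read 829.7, 872.8 and 530.4 against 108.1 and 100.1 (-2.48 ± 0.33), and another read 237.7, 332.1 and 207.6 against 1253.9 and 1048.2 (2.04 ± 0.48).

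The immediate early genes, which respond to growth factors and handling, split into 4 that rose and 5 that fell of 18. Egr1 rose from 516 ± 139 to 2121 ± 70.6 and Ier3 from 51.6 ± 30.1 to 1138 ± 83.7, while Fos fell from 289 ± 156 to 68.3 ± 9.26. Of 14 tested antigen presentation genes 4 fell (2 with the larger pseudocount) and none rose, led by H2-K1, a class I chain (569 ± 37.9 to 143 ± 6.86). None of 10 tested ribosomal protein genes was called; their median difference was -0.005 and their summed signal 70505.6 to 71938.8 against 71061.4 to 71861.0.

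**Figure D5:**
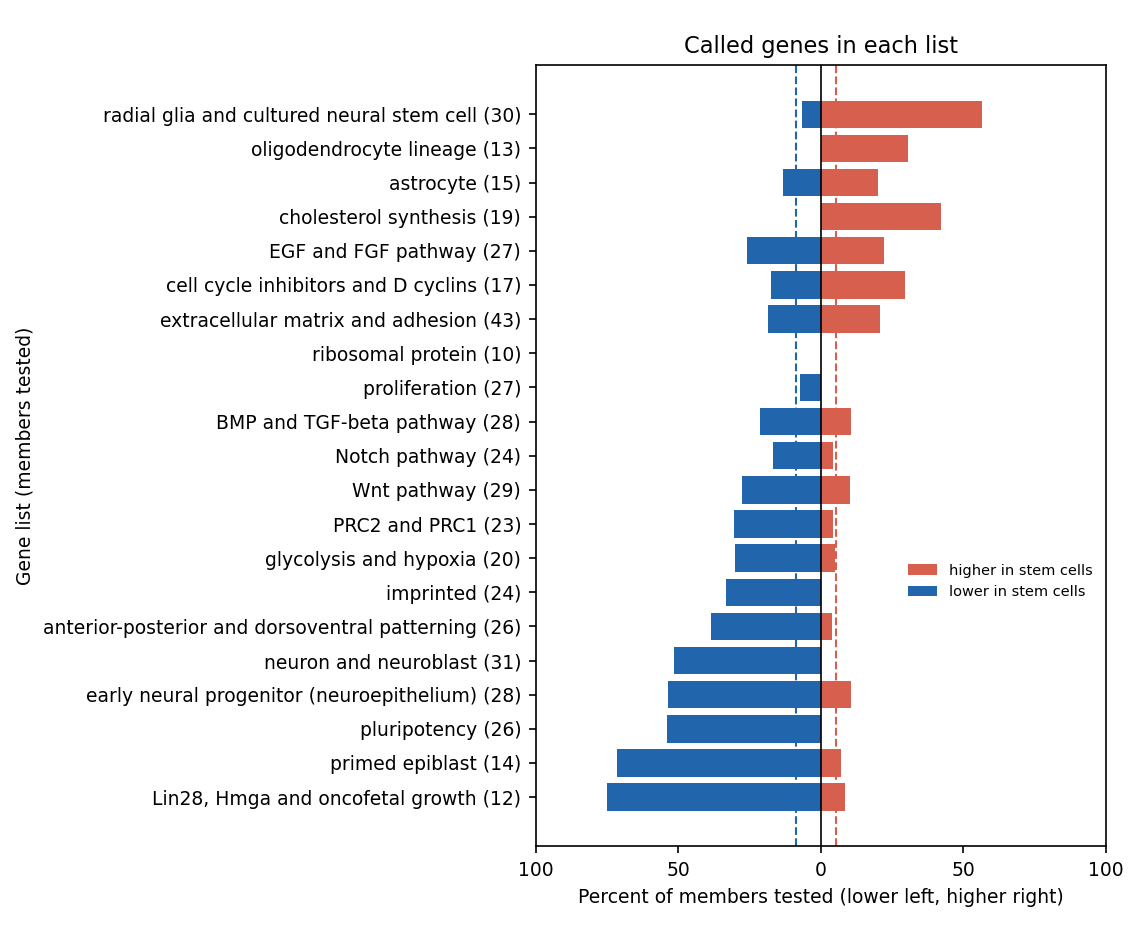
Percent of tested members called higher (right) or lower (left) in neural stem cells for 21 gene lists (y axis, number tested in brackets), with dashed lines at the share over all genes, 5.32% higher and 8.68% lower. Radial glia and cholesterol genes extend to the right, and oncofetal, epiblast, pluripotency, neuroepithelial and neuronal genes to the left.

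Set against outside cell types, the stem cells differed from MEF in 2569 genes (18.6%), 1101 of them (7.98%) higher in the stem cells, and the progenitors from ES cells in 1794 (13%), of which 1236 (8.96%) were higher in the progenitors. These comparisons share arrays with the main one, so their values are only set side by side. Nfix, Cd44, Tgfbr2 and Lgals1, which rose between the neural stages, are also fibroblast genes: Cd44 read 2455.5 and 3160.8 and Nfix 1255.5 and 1313.0 in MEF, and for Nfix the stem cells differed from MEF by -0.35 ± 0.18, which was not called. Olig2, Bcan and Gpm6b were dim in MEF, and the stem cells exceeded MEF by 4.8, 5.59 and 6.48. Of the genes that fell, Hes5 and Crabp1 had been higher in the progenitors than in ES cells by 4.54 and 5.04, while Slc2a3 was at the ES cell level (0.15 ± 0.08) and Lin28a was 1.29 ± 0.23 above it. Of the genes called between progenitors and ES cells 68.9% were higher in the progenitors; with quantile normalisation, which moves the median of all genes from 0.073 to -0.05, or with a probe-set score as covariate the share was 58.3%. The score is the first component of the difference between the brightest probe sets of a gene over 6404 pairs, a measure that RNA quality can move; it was -34.87 to -29.75 in the progenitors, -31.75 and -30.95 in the stem cells and -6.84 to 3.12 in ES cells. It overlapped between the neural groups and set both apart from ES cells, and its part in the comparison with ES cells was not tested beyond that covariate.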

How the data were processed

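Biotinylated cRNA was made from Trizol-extracted total RNA, per the labels' protocols. Each array comes with a linear intensity for every probe set, as the authors deposited it; summarisation and scaling are not given in the sources used. Intensities ran from 0.4 to 33985.898, and the log2(value + 32) medians of the arrays spanned 0.2035, so the values were used as they stand.

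Of 45037 probe sets, 34945 carried 1 gene symbol in the annotation given, 932 several and 9160 none. Each gene was read from its brightest probe set, by mean over the 53 arrays (18193 genes), and the 13796 above the array median in at least 2 arrays were tested. A gene dim elsewhere could pass this filter through the 2 stem cell arrays alone, as Olig1 did. Groups came from the titles. limma 3.58.1 in R 4.3.3 was fitted on log2(value + 32) with 15 group means (38 residual degrees of freedom among 53 arrays, and 4.7 prior ones), so the spread is pooled over all groups.

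The fit was tested on simulated data of 13796 genes with 50 changed per fold: 17 were called at 2-fold, 50 at 3-fold, 48 at 4-fold and 50 at 8-fold. The named genes are the 12 largest rises and 12 largest falls among called genes without overlap, up to 4 members of each list by p with its other called members, and a fixed set of markers; Mest, Ldha, Pgk1, Hes1, Notch1, Mki67, Sqle, Sox10 and Hr, among others that were not called, were named after their values were seen. The members and gene lists were chosen with earlier results of these data known. Alternatives covered scaling, pseudocount, filter, probe set choice, fit options, fold minimum, the replicate block and each array left out. The number of arrays limits the precision.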

Additional observations from a re-analysis of the deposited data

How the results depend on the processing

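The number of genes called between neural stem cells and progenitors depended most on the pseudocount and the fold minimum. With a pseudocount 4 times larger, 1070 genes were called (452 higher, 618 lower); with no fold minimum 5766 (2144 and 3622), and with 1.5-fold 4173 (1502 and 2671). For stem cells against MEF the same settings gave 1620, 5917 and 4641 genes, and for progenitors against ES cells 995, 6268 and 3736. Leaving out each array in turn gave 1818 to 1960 genes, with 700 to 771 higher and 1115 to 1243 lower. All other settings run left these counts within 1.5 times the main one, and the mean of all probe sets, at 1442 genes, kept 1316 of the 1931 calls and turned the sign of 6. The replicate numbers 1 and 2 are shared by the 2 groups, but no label pairs them and same-numbered arrays deviated together at only -0.071 and 0.074; with the replicate block 1921 genes were called (699 higher, 1222 lower), 1822 of them among the 1931. Of 240 called genes among those named by the rule or named after their values were seen, 156 kept their call and direction under every alternative run for them. The larger pseudocount ended 56 calls and the mean of all probe sets 42. Dnmt3a turned to 0.35 with the mean of all probe sets, and Hr to -0.39 without stem cell replicate 1 and to 7.63 without stem cell replicate 2; the cause was not tested. No detection calls were used, so dim values have no measured background.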

Other observations

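Hr, which encodes the hairless corepressor, was the 1 called gene whose groups overlapped. It read 40.7, 29.8 and 74.9 in the progenitors and 15495.2 and 27.8 in the 2 stem cell arrays. So 1 array carries its difference of 3.62 ± 0.81 (adjusted p = 0.00031, limma). With only the arrays compared in the fit, the adjusted p was 0.11 (limma). The gene was chosen after its values were seen.

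Of 6404 genes with at least 2 fitted probe sets, 14 had probe sets called in opposite directions, and 9 of these were called on their own probe set. Beside Dnmt3a (-2.48 and 2.04), the widest spans were those of Rbm39 (-1.73 and 1.64), Cdk7 (-1.48 and 1.69), Auts2 (-2.02 and 1.17) and Hmga2 (-2.04 and 1.14), all singled out after their values were seen. Lamc1, given above among the matrix genes, was also 1 of the 14 (-1.09 and 1.12). Over all probe sets 3517 of 25016 (14.1%) were called, and 2569 genes had at least 1 called probe set. This fit over probe sets was added after the data were seen.

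Genes with large differences sometimes lay side by side. Among 417 genes that differed at least 4-fold and have a position, 21 pairs were direct neighbours in the order of protein-coding RefSeq genes, and 20 of these moved in the same direction. Olig2 and Olig1 (4.65 and 6.01), Tmem176b and Tmem176a (4.32 and 3.20), and the corepressor genes Tle5, Tle2 and Tle6 (3.15, 4.15 and 2.77) rose together. Insl6 and Rln1, both of the relaxin family (-5.25 and -3.72), Nefl and Nefm (-3.97 and -4.40), and Nanog and Slc2a3 (-3.62 and -4.87) fell together. The exception was Mdk, the growth factor midkine, and Dgkz (-3.54 and 2.56). Several pairs are members of 1 gene family, for which probes of similar sequence were not examined.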
